A study of Mus musculus with 18 samples.

Results

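Egr1, Egr2 and Egr3, Nr4a1, Nr4a2 and Nr4a3, and Ier2, Ier3 and Ier5 were followed by cell class, arm and day in a single-cell RNA-seq series on stretch-mediated expansion of mouse skin. They were taken by symbol, and all 9 were found among the 32285 genes of every mRNA matrix. The symbols come from named families and not from values measured here.

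These are immediate early genes: their transcripts appear within minutes of a growth factor, cytokine or mechanical stimulus without new protein synthesis, and most decay quickly. EGR1, EGR2 and EGR3 are zinc finger transcription factors switched on largely through serum response factor and ERK signalling. NR4A1, NR4A2 and NR4A3 are orphan nuclear receptors, classic targets of cAMP and calcium signalling through CREB. IER2, IER3 and IER5 are small nuclear or cytoplasmic regulators: IER3 modulates ERK signalling and cell survival, and IER5 is a partner of heat shock factor HSF1. The same genes are known to rise while tissue is digested and sorted, a step that all cells here went through, so a level is that of the cell after dissociation.

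All mice had surgery on the back, with an incision near the tail and a tunnel under the skin to the neck. In the expanded arm a hydrogel expander was placed under the neck skin, and control mice received none, so both arms carry the incision and the tunnel. Skin was taken on day 1, 2 or 4, digested, and sorted for live DAPI-negative cells. In each sequencing round the mice of 1 arm were pooled in 1 tube and made into a 10x Genomics library that reads 3′ ends, which gave 5 control and 5 expanded libraries. Days 1 and 2 each had 2 such pairs of libraries, and day 4 had 1. Hashtags in 8 of the 10 libraries identify 14 mice per arm, of which 3 belong to day 1, 7 to day 2 and 4 to day 4. The labels used here give no strain, sex or age, and within a round the arm and the library cannot be told apart.

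The libraries held 17726739 to 75470722 gene UMIs, and 1836 to 7681 cells each were kept, with a median of 6283 to 12678 UMIs per cell. Of 44331 kept cells, 41993 fell into 16 classes named from marker genes, 1234 formed a cluster led by Tnc, Saa3 and Timp1 that was left unnamed, and 1104 stayed in other unnamed clusters. The 9 genes and the listed AP-1, heat shock and mitochondrial genes were left out of the clustering. Levels are given per class and library as CPM, counts per 1000000: the gene's UMIs scaled to that total for the class in that library. CPM from 3′ reads is not scaled by gene length here, so levels are compared between cells and not between genes. Depth per cell also differed by arm within classes. Median UMIs per cell were 3631 to 7202.5 in control and 8725 to 12084 in expanded endothelial-like libraries. In macrophage or monocyte-like libraries they were 4221.5 to 7991 and 7209 to 15077. In fibroblast-like libraries they were 7412 to 13311.5 and 8669 to 13751, largely overlapping.

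Stretches just before the annotated starts of the NR4A genes and of Egr2 are shown because the 3 NR4A genes fell together in several classes. A second reason is the cAMP response element, the site through which CREB is known to act on the NR4A genes. The motif searched was its half-site, TGACG, on both strands, so CGTCA is the same match read from the other strand. RefSeq's promoter table (build GRCm38.p6, the mm10 of the files) had entries for 6 of the 9 genes: Egr2, Nr4a1, Nr4a2, Nr4a3, Ier3 and Ier5. The printed bases hold no annotated exon. By the GENCODE annotation the Nr4a2 and Nr4a3 stretches end at the gene's outermost start, while the Nr4a1 and Egr2 stretches lie inside the gene, in an intron of a longer transcript and directly before the start of a shorter one. Egr2 has 5 entries, and of the 3 overlapping ones that hold the most matches the longest stretch is shown. The stretches run 5′ to 3′ on the gene's strand, and capitals mark half-sites and, in Egr2, also the CArG box, the site of serum response factor.
Nr4a1, chr15:101266596-101266845, plus strand: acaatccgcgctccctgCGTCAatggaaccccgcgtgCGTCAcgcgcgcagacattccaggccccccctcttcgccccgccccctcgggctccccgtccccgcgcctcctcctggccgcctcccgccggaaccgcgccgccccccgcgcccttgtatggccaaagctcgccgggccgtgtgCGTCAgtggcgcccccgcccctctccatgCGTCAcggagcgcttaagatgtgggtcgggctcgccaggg
Nr4a2, chr2:57124004-57124253, minus strand: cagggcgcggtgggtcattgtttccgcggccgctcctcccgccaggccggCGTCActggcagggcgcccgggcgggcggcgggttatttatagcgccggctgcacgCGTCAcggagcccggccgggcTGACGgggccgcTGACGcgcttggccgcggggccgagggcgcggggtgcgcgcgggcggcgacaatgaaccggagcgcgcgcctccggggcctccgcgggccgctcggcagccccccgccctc
Nr4a3, chr4:48045055-48045152, plus strand: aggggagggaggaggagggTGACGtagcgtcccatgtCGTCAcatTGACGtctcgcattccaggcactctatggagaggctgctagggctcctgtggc
Egr2, chr10:67537619-67537868, plus strand: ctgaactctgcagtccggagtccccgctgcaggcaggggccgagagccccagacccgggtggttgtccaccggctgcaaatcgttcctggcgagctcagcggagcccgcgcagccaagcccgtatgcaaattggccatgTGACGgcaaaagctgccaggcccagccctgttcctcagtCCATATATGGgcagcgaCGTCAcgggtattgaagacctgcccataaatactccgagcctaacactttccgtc
The Nr4a1 and Nr4a2 stretches each hold 4 half-sites in 250 bases, and the shorter Nr4a3 stretch holds 3 in 98 bases. Of the 32851 RefSeq promoters of 27025 genes, 17.8% held at least 1 half-site in their 250 upstream bases, 3.90% at least 2 and 0.137% at least 4. The Egr2 stretch holds 2 half-sites and 1 CArG box, and 1.47% of all promoters held a CArG box. The Ier3 and Ier5 stretches held neither. A match in letters is a description of the sequence and shows no binding.

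Each gene had its own order of classes. Levels are means ± SD of CPM over the libraries with at least 20 cells of a class, given as a description with no test. Egr1 was highest in mast cell-like cells (4340.4 ± 2022, n = 8), then in basal keratinocyte-like (2946 ± 647) and lymphatic endothelial-like cells (2642 ± 1087, both n = 10). It was lowest in macrophage or monocyte-like (319 ± 158), dendritic-like (182 ± 55.2) and lymphocyte-like cells (138 ± 62.5). Apart from mast cell-like cells, the leukocyte classes were thus at the low end for Egr1, with neutrophil-like cells at 762 ± 294. Mast cell-like cells, which also led for other members, were shallow. Their control libraries had medians of 1006 to 1869 UMIs per cell and the expanded ones used 1912 to 4066.5. Not every expanded library held 20 of them. The basal keratinocyte-like class, led by Krt24, Lhx2 and Krt15, does not hold all cells with basal markers, since others fell in the mixed class.

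Egr2, which Schwann cells need for myelination, was highest in Schwann-like cells (166 ± 65.5, n = 9), followed by mast cell-like cells (103 ± 101), and lowest in endothelial-like (9.93 ± 3.88) and neutrophil-like cells (9.33 ± 8.54). The place of neutrophil-like cells rests on control libraries of 20 to 41 cells, which all read 0 CPM. Their expanded libraries read 9.83 to 20.4 CPM. Egr3, a close relative that acts in muscle spindles and lymphocytes, was highest in mast cell-like cells (564 ± 367) and stood at 222 ± 121 in Schwann-like cells. Dermal papilla-like cells (61.8 ± 5.88) and melanocyte-like cells (27.2 ± 8.41), which follow each other in the order for Egr3, were the only neighbouring classes whose libraries did not overlap for any of the 9 genes.

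The NR4A genes differed in the classes that led. Nr4a1 was highest in mast cell-like (1112 ± 393), pericyte and smooth muscle-like (817 ± 309.5) and dermal papilla-like cells (809.7 ± 359.5), and lowest in macrophage or monocyte-like cells (124 ± 42.4). Nr4a2 led in mast cell-like (807 ± 419) and Schwann-like cells (697 ± 189) and was lowest in melanocyte-like cells (51.9 ± 11.8). Nr4a3 led in dendritic-like (880.2 ± 409.5) and lymphocyte-like cells (508 ± 94.0), where Egr1 was at its lowest, and was down at 30.1 ± 21.8 in lymphatic endothelial-like and 20.9 ± 8.34 in melanocyte-like cells.

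Ier2 was highest in basal keratinocyte-like (968 ± 121) and dermal papilla-like cells (966 ± 227) and lowest in macrophage or monocyte-like cells (133 ± 33.4). Ier3 had the opposite end: macrophage or monocyte-like cells were highest (2881 ± 629.6), followed by endothelial-like cells (2619 ± 636), and lymphocyte-like cells were lowest (164 ± 52.2). Ier5 was highest in dermal papilla-like (831 ± 372) and muscle satellite-like cells (727 ± 131, n = 3) and lowest in basal (102 ± 29.7) and suprabasal keratinocyte-like cells (83.7 ± 24.3). Over the control libraries alone the leading class became mast cell-like for Ier2 (975 CPM), endothelial-like for Ier3 (3092 CPM) and muscle satellite-like for Ier5 (727 CPM), and was the same for the other 6 genes. With cells limited to 5% mitochondrial UMIs, dermal papilla-like cells led for Ier2 (981 CPM) and no other leader changed.

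**Figure D1:**
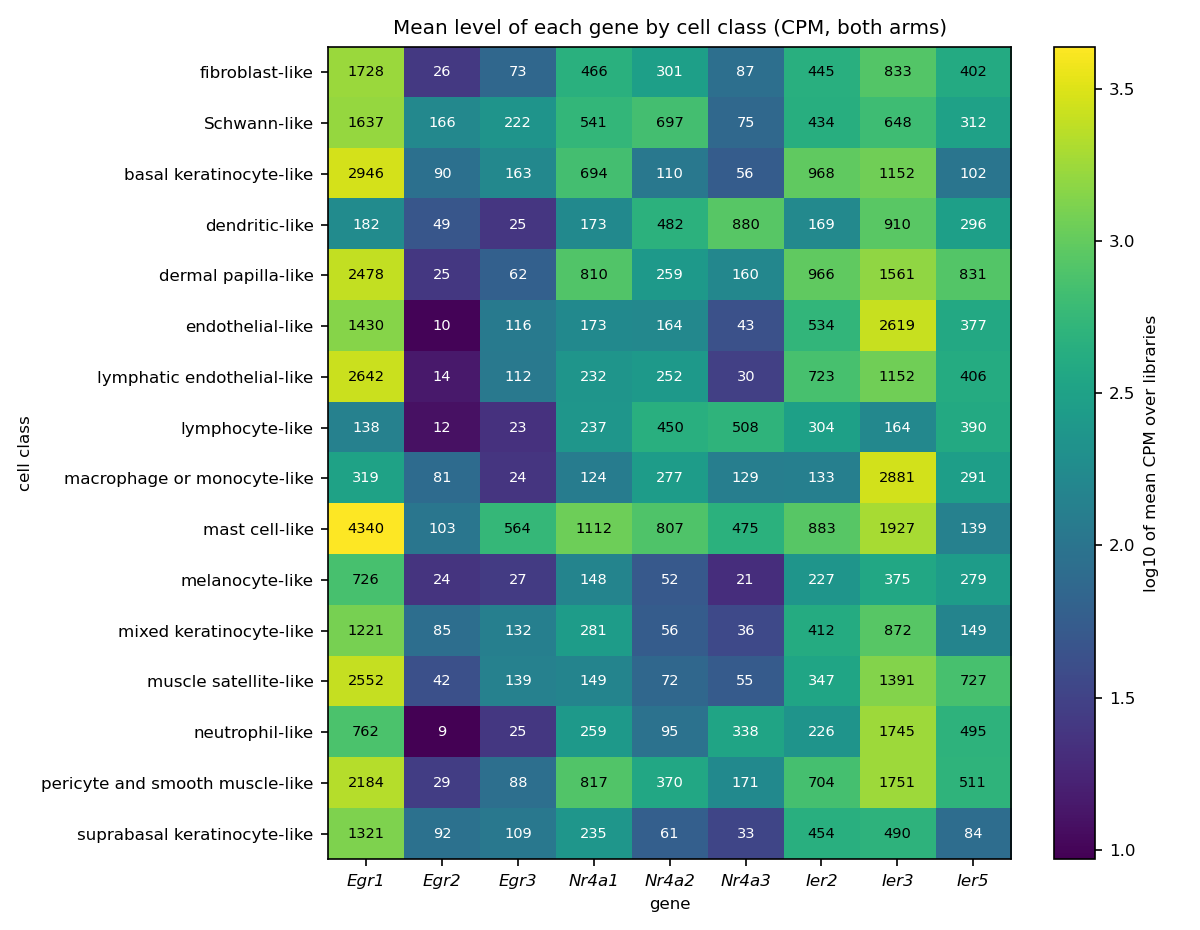
Mean CPM of each gene (columns) in each of the 16 named classes (rows) over libraries of both arms; colour is the log10 of the mean, and the numbers in the cells are the means. Mast cell-like cells lead for Egr1 (4340 CPM), dendritic-like cells for Nr4a3 (880 CPM) and macrophage or monocyte-like cells for Ier3 (2881 CPM); levels are to be compared down a column.

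The genes whose class means ran most like each member were found by Pearson's r of log2(CPM + 1) over the 16 classes, among 8830 genes with a mean of at least 10 CPM. The classes come from the same 10 libraries, so r is a description. Some classes had too few cells in several libraries, and muscle satellite-like cells had enough in controls only, so class means mix arms and days unequally. For Egr1 they included the AP-1 gene Jun (r = 0.85) and the Notch target Hes1 (r = 0.85). For Egr2 they were Spryd7, Adgrg6 and Pla2g4a (r = 0.80, 0.80 and 0.79), and for Egr3 Gnai1, Tcaf2 and Brwd1 (r = 0.85, 0.85 and 0.84). Adgrg6 is a receptor that Schwann cells need for myelination. For Nr4a1 they were the endothelin receptor gene Ednra (r = 0.85), Gnai1 (r = 0.77) and Ier2 (r = 0.75), for Nr4a2 Tsc22d3, Soga1 and Lats2 (r = 0.84, 0.82 and 0.79), and for Nr4a3 Arhgap15, the clock gene Per1 and the AP-1 family gene Batf (r = 0.91, 0.86 and 0.86). For Ier2 they were Kalrn, Tmem158 and Nck2 (r = 0.89, 0.83 and 0.83), for Ier3 Ptpn12, Wdfy3 and Myo1c (r = 0.81, 0.78 and 0.73), and for Ier5 Syap1, the chaperone gene Hspa5 and Dhx40 (r = 0.89, 0.86 and 0.85). Among the members themselves the closest pairs were Egr1 with Ier2 (r = 0.81) and Egr1 with Egr3 (r = 0.80). Within families r was 0.63 for Nr4a2 with Nr4a3 and 0.19 for Egr1 with Egr2, and the lowest r of any pair was -0.61, for Egr2 with Ier5.

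The comparison of arms asks which of these genes differ between expanded and control skin within a cell class. For each class, UMI sums of the libraries went into edgeR's quasi-likelihood fit of arm and day, and p-values were adjusted by Benjamini-Hochberg over all genes tested in the class. A gene was called when its adjusted p was under 0.05. Each library is a pool of mice, so p-values measure the spread between these pools. Fold changes are log2, expanded minus control, after TMM scaling, which centres the genes of a library where CPM does not.

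Scaling by total counts alone in place of TMM raised the median fold change of all genes from 0.03 to 0.26 in fibroblast-like cells, from 0.01 to 0.23 in dendritic-like and from 0.05 to 0.23 in all cells. It raised it from 0.01 to 0.12 in endothelial-like and in macrophage or monocyte-like cells, from 0.01 to 0.13 in lymphocyte-like and from 0.00 to 0.11 in pericyte and smooth muscle-like cells. The share of called genes that were higher went from 47.9% to 77.3% in fibroblast-like, from 46.5% to 79.8% in dendritic-like, from 44.4% to 64.0% in endothelial-like, from 50.5% to 62.2% in lymphatic endothelial-like, from 21.0% to 49.3% in lymphocyte-like, from 43.7% to 57.3% in macrophage or monocyte-like, from 42.7% to 60.9% in pericyte and smooth muscle-like and from 47.4% to 68.9% in all cells. Over mice it went from 51.8% to 76.4% in fibroblast-like, from 51.1% to 63.6% in macrophage or monocyte-like, from 49.2% to 68.2% in lymphocyte-like, from 49.9% to 76.7% in dendritic-like and from 49.4% to 70.3% in all cells. No called member changed direction under that scaling.

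Members passed in opposite directions in different classes. In fibroblast-like cells Egr2, Egr3 and Ier3 rose and Nr4a1, Nr4a2, Nr4a3 and Ier5 fell: 7 of 9 members were called, against 28.5% of all genes tested, and the median fold change of the members was 0.33 against 0.03 over all genes. In endothelial-like cells 6 members were called, all lower, against 13.1% of genes (medians -0.77 and 0.01). In lymphatic endothelial-like cells 5 of 8 tested members were called, all lower, against 11.7% (medians -1.02 and 0.01).

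In macrophage or monocyte-like cells 4 members were called, all lower, against 22.8% of genes (medians -0.52 and 0.01). In pericyte and smooth muscle-like cells 3 were called, all lower, against 18.5% (median -0.51 for the members). In mixed keratinocyte-like cells 1 was called, lower, against 10.8%, and in lymphocyte-like cells 1 was called, higher, against 0.937%. No member was called by edgeR in dendritic-like cells (18% of genes called; 0 members with an unadjusted p under 0.05), basal keratinocyte-like cells (1.09%; 1 member) or Schwann-like cells (0.154%; 1 member). In all kept cells together 3 members fell, Nr4a1, Nr4a2 and Ier5, against 26.5% of genes called.

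**Figure D2:**
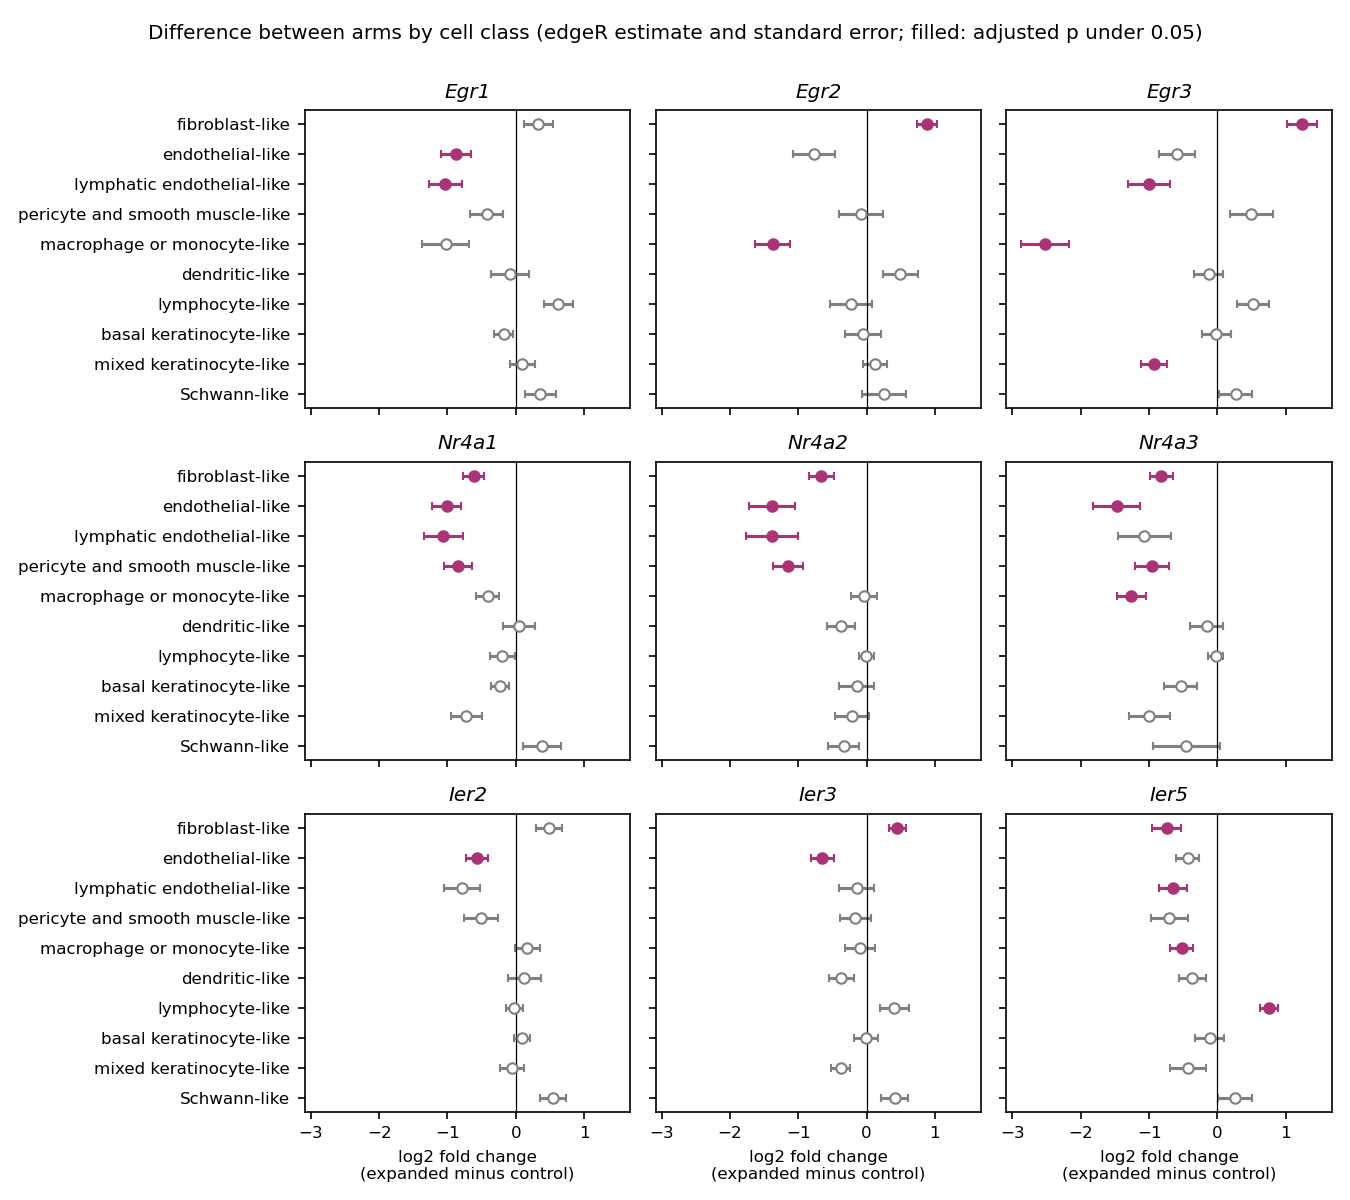
Log2 fold change of each gene, expanded minus control, in the 10 tested classes; points are edgeR estimates, bars their standard errors, and filled points have an adjusted p under 0.05. Egr2 and Egr3 are called to the right of 0 in fibroblast-like cells and to the left in macrophage or monocyte-like cells, where Egr3 stands at -2.52, while called NR4A points all lie left of 0.

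Fibroblast-like cells, the collagen-producing cells of the dermis and fascia, gave the most called members. Values of the 5 libraries of an arm are listed in the order first and second round of day 1, first and second round of day 2, and day 4. Egr2 stood at 13.1, 14.3, 11.2, 20.3 and 21.7 CPM in the control libraries and at 29.4, 38.6, 29.3, 27.4 and 50.8 CPM in the expanded libraries. All expanded libraries lay above all control libraries, with a log2 fold change of 0.89 (SE 0.14, adjusted p = 0.00184) by edgeR's quasi-likelihood test. Egr3 stood at 23.1, 41.3, 49.7, 47.2 and 35.5 CPM in controls and 99.9, 141, 111, 64.2 and 116 CPM in expanded skin, again with no overlap, and its fold change was 1.24 (SE 0.22, adjusted p = 0.00276).

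Egr1 did not pass: it stood at 1316, 1238, 1147, 1713 and 1264 CPM in controls and 2946, 3308, 1198, 1451 and 1704 CPM in expanded skin, with a fold change of 0.33 (SE 0.21, adjusted p = 0.268). Both day 1 expanded libraries were above every control library, and the day 2 and day 4 libraries lay within the control range.

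The 3 NR4A genes were lower. Nr4a1 stood at 674, 509.8, 471, 389 and 535 CPM in controls and 539.7, 601, 307, 241 and 388 CPM in expanded skin, a fold change of -0.61 (SE 0.15, adjusted p = 0.014) by edgeR. Nr4a2 was at 498, 378, 314, 258 and 268 CPM and at 363, 312, 286, 154 and 175 CPM (-0.66, SE 0.18, adjusted p = 0.0217). Nr4a3 was at 119, 120.3, 98.0, 74.2 and 112 CPM and at 54.8, 84.6, 69.0, 50.9 and 89.1 CPM (-0.82, SE 0.17, adjusted p = 0.00581). The arms overlapped for each of them, and Nr4a2 and Nr4a3 were lower in the expanded library of all 5 pairs. Nr4a1 lost its call without the day 4 expanded library, Nr4a2 without any of 4 libraries (the first day 1 and the day 4 control, the second day 1 and the day 4 expanded), and Nr4a3 in no such fit. With total counts in place of TMM, Nr4a1 and Nr4a2 had fold changes of -0.37 and -0.42 and adjusted p of 0.069 and 0.065.

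The IER genes divided. Ier3 stood at 596, 594, 639.6, 674 and 687 CPM in controls and 920.3, 1152, 1072, 771 and 1220.0 CPM in expanded skin, with no overlap between arms (0.45, SE 0.12, adjusted p = 0.0214). Ier5 went the other way, from 503, 424, 599, 398 and 423 CPM to 212, 375, 371, 281 and 432 CPM (-0.74, SE 0.21, adjusted p = 0.0253). Ier2 stood at 256, 292, 273, 462 and 384 CPM in controls and 671, 674, 348, 429.6 and 659.9 CPM in expanded skin and did not pass (0.49, SE 0.19, adjusted p = 0.0793). The highest control library of Ier2 overlapped both day 2 expanded libraries. Ier3 lost its call in 5 of the 10 fits that left out a library (the second day 1 and the day 4 control; the second day 1, the first day 2 and the day 4 expanded), and Ier5 in 3 (the first day 1 and the first day 2 control, the second day 2 expanded). With total counts Ier5 also missed the limit (-0.50, adjusted p = 0.060), and Ier2 passed (0.71, adjusted p = 0.0273). Ier2 passed as well by DESeq2 (0.48, adjusted p = 0.0416), without the filter on low counts (0.45, adjusted p = 0.0115), with cells thinned to 2000 UMIs (0.58, adjusted p = 0.0471), and without the second day 2 control or the first day 2 expanded library (0.64 and 0.62).

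**Figure D3:**
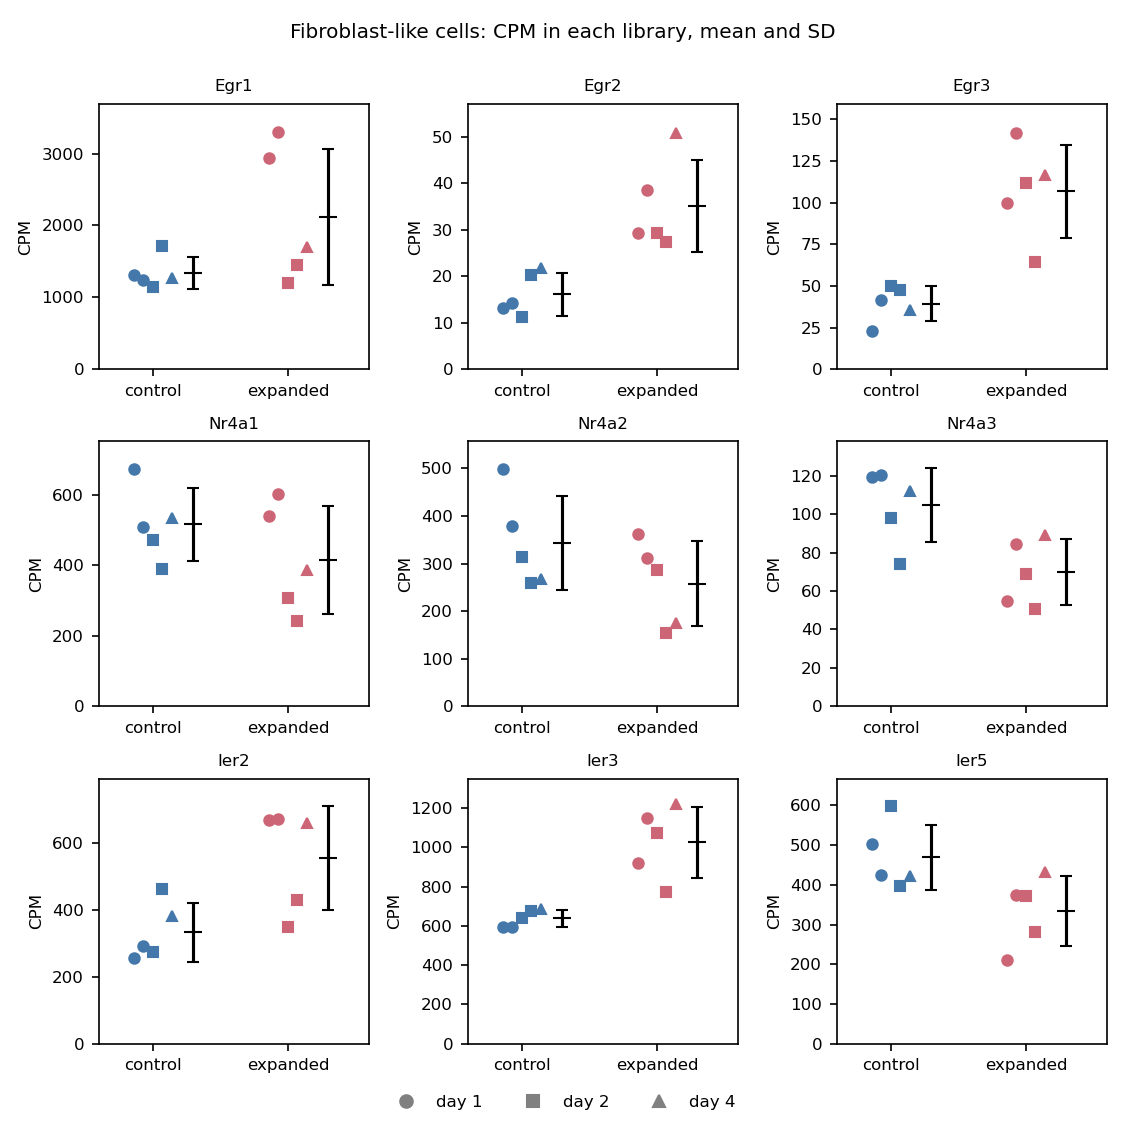
CPM of each gene in fibroblast-like cells, 1 point per library, with marker shape for the day and mean ± SD beside each arm (n = 5). The arms separate for Egr2, Egr3 and Ier3, and overlap for the other 6 genes.

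The fibroblast-like class is a mix of clusters whose shares differed between arms. A cluster led by Col1a1, Col1a2 and Cpz made up 40.5% of control and 7.63% of expanded fibroblast-like cells, while one led by Fmod, which encodes a collagen-binding proteoglycan, Coch and Cck made up 12.6% and 43.7%. In controls Egr3 stood at 6.98 ± 1.86 CPM in the first and 185 ± 41.4 CPM in the second (SD, n = 5 libraries), and Egr2 at 10.2 ± 3.25 and 30.4 ± 12.9 CPM. Tests within single clusters were added after the data had been seen, for the 4 clusters with enough cells in both arms.

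Within the Fmod and Coch cluster 1 member was called, Ier3 at 0.57, against 9.68% of genes, and Egr3 was at -0.15 (adjusted p = 0.70). Within a cluster led by Mme, Cadps and Igfbp2 Ier3 rose (0.58) and Nr4a1 fell (-0.59), against 13.7% of genes, and Egr3 was at -0.40. Within clusters led by Lrrc15 and Tnn (1.87% of genes called) and by Apod and Smim41 (5.95%) no member was called, with 4 and 0 members at an unadjusted p under 0.05. The estimate for Egr3 was thus below 0 in 3 of 4 clusters and that for Egr2 in 1, the Apod and Smim41 cluster (-0.47). None of these was called, so they show no fall. Ier3 was above 0 in all 4. The cells of the unnamed cluster led by Tnc, Saa3 and Timp1 made up 2.48% of controls and 24.3% of expanded skin when counted together with the fibroblast-like cells. With them in the class, also added after the data had been seen, Egr3 stood at 0.96 and Ier3 at 0.64, and Nr4a2 was not called (-0.52, adjusted p = 0.077). How far cluster shares account for the difference of the whole class was not tested.

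Hashed mice gave a second view of part of the same cells, with animals as units and the day-and-round pair as a covariate. The first round of day 1 was not hashed, so both its libraries are absent here. The p-values by mice do not cover the spread between libraries. Of 26 mice with at least 20 assigned fibroblast-like cells, 14 were controls and 12 expanded. By edgeR 4 members were higher and 4 lower, against 40.5% of genes called. The lowest, median and highest mouse for Egr3 were 21.1, 39.8 and 106 CPM in controls and 19.1, 98.5 and 159.8 CPM in expanded skin, with a fold change of 1.0 (SE 0.21, adjusted p = 0.000527). For Egr2 the fold change was 0.84 (SE 0.20, adjusted p = 0.00162), for Ier3 0.48 (SE 0.12, adjusted p = 0.00256) and for Ier2 0.42 (SE 0.16, adjusted p = 0.0381). For Nr4a1 it was -0.60 (SE 0.13, adjusted p = 0.000497), for Nr4a2 -0.77 (SE 0.14, adjusted p = 6.56e-05), for Nr4a3 -0.52 (SE 0.19, adjusted p = 0.0263) and for Ier5 -0.36 (SE 0.08, adjusted p = 0.00096). Only 38.6% of fibroblast-like cells of the hashed libraries could be assigned to a mouse, and Nr4a3 and Ier2 each kept their call in 1 of the 4 fits that left out a pair of libraries.

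Other genes of the early response were followed by list in the same fibroblast-like cells, where 28.5% of all genes were called. Among 14 MAPK and mRNA-decay feedback genes 5 rose and 1 fell (median -0.02), among them the phosphatase genes Dusp2 (1.76, SE 0.34, adjusted p = 0.00439) and Dusp4 (1.12) and the ERK inhibitor gene Spry4 (1.28). Of 4 tested relatives of the members 2 rose, Ier5l (0.87) and the EGR co-repressor gene Nab2 (0.49). Of 8 AP-1 genes 2 fell, Atf3 (-1.23) and Jund (-0.54). Of 11 other early-response transcription factors 5 fell and none rose, among them Cebpd (-0.80) and Cebpb (-0.61). Of 9 heat shock genes, which are also known to rise on dissociation, 2 fell, among them Hspa1b (-1.37), and none rose. Of 9 tested genes reported as EGR1 targets 3 rose and 2 fell, with Fn1 at -1.54. Of 11 upstream factors of the serum and cAMP response 3 fell, among them Mef2a (-0.51). Of 7 receptors upstream of the response 3 rose and 2 fell, with Tnfrsf1a at 0.59 and Egfr at -1.15. Of 8 mitochondrial transcripts none was called. The part of these genes, or of dissociation, in the members' differences was not tested.

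In macrophage or monocyte-like cells Egr2 and Egr3, which rose in fibroblast-like cells, fell, as did Nr4a3 and Ier5. EGR2 is known from macrophages, where it marks alternative activation. Egr2 stood at 132, 86.4, 111, 99.9 and 129.8 CPM in controls and 96.2, 36.9, 31.4, 38.5 and 44.8 CPM in expanded skin, and only the first day 1 expanded library reached into the control range (-1.37, SE 0.25, adjusted p = 0.00529 by edgeR). Egr3 stood at 51.9, 24.9, 52.8, 25.7 and 41.2 CPM and at 17.2, 8.73, 4.23, 5.2 and 6.97 CPM, every expanded library below every control (-2.52, SE 0.35, adjusted p = 0.00183). Nr4a3 stood at 228, 171, 167, 117 and 203 CPM and at 86.5, 101, 93.1, 57.6 and 61.8 CPM, again apart (-1.26, SE 0.21, adjusted p = 0.00373). These 3 calls held in all 10 fits that left out a library. At a finer clustering of the cells Egr2 and Egr3 kept their calls, and Nr4a3 lost its call.

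Egr1 stood at 461, 338, 553, 313 and 297 CPM in controls and 534, 294, 129, 113 and 164 CPM in expanded skin and missed the limit (-1.03, SE 0.34, adjusted p = 0.0538). With the day-and-round pair as replicate block it passed, at -1.0 (adjusted p = 0.039). Ier5 was lower (-0.52, SE 0.17, adjusted p = 0.0474) but kept its call in only 1 of the 10 fits that left out a library, the one without the second day 2 control. Nr4a1 was at -0.41 (SE 0.17, adjusted p = 0.102), and Nr4a2, Ier2 and Ier3 at -0.04, 0.17 and -0.10, none of them called.

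The class consists of 2 clusters with different shares in the arms. One led by Chil3, Fcgr1 and Msr1, with the monocyte genes Ly6c2 and Plac8 and the macrophage gene Trem2 also among its 10 leading genes, made up 45.4% of the class in controls and 95.6% in expanded skin, and one led by Cd209f, Cd209g and Folr2, known from resident macrophages, 54.6% and 4.38%. At the finer Leiden resolution of 2 a cluster of 826 cells was led by Chil3 and Ly6c2, and 1 of 1437 cells had Pf4, Msr1 and Trem2 among its leading genes. In controls Egr2 stood at 30.6 ± 19.8 CPM in the first and 209 ± 102 CPM in the second (SD, n = 5), Egr3 at 11.0 ± 2.68 and 68.8 ± 24.6 CPM, and Nr4a3 at 98.2 ± 25.2 and 224 ± 61.0 CPM.

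Within the Chil3 cluster, tested alone after the data had been seen, 1 member was called against 12.6% of genes. Egr3 stood there at 7.82, 12.3, 11.7, 14.4 and 8.81 CPM in controls and 10.6, 6.53, 4.23, 4.4 and 6.83 CPM in expanded skin, lower at -1.03 (adjusted p = 0.038), with only the first day 1 expanded library above the lowest controls. Egr2 was at -0.10 (adjusted p = 0.87), Nr4a3 at -0.54 (0.10) and Egr1 at -0.51 (0.17). The Cd209f cluster had at least 20 cells in only 2 expanded libraries and was not tested, and the part of the shares in the difference of the whole class was not tested.

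**Figure D4:**
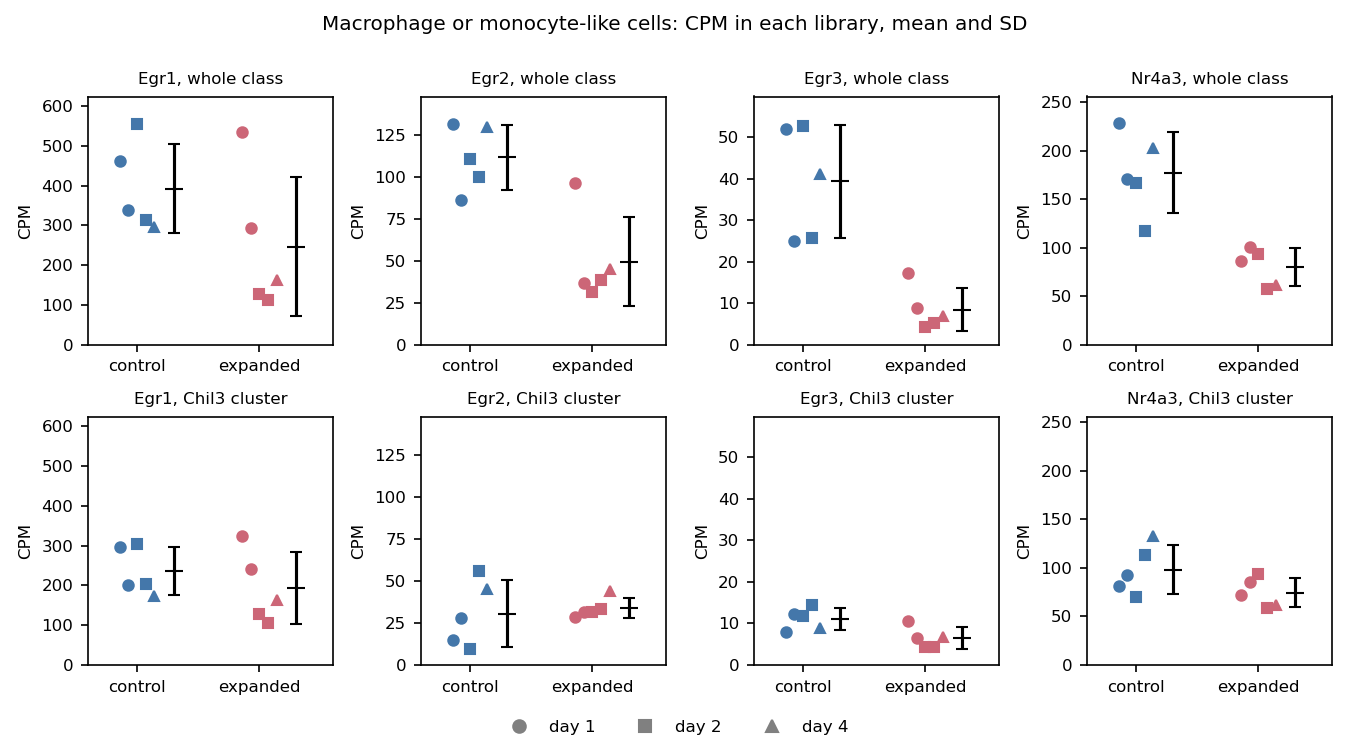
CPM per library of Egr1, Egr2, Egr3 and Nr4a3 in the whole macrophage or monocyte-like class (upper row) and in its Chil3 cluster (lower row), with mean ± SD for each arm (n = 5) and the same CPM axis in both rows. Egr3 and Nr4a3 separate the arms in the whole class; in the cluster alone control levels are lower and the arms overlap.

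By mice, 14 control and 12 expanded, 6 members were lower in macrophage or monocyte-like cells and none higher, against 46.1% of genes called. The fold change by edgeR was -2.74 (SE 0.27, adjusted p = 1.24e-08) for Egr3, -1.54 (SE 0.19, adjusted p = 3.1e-07) for Egr2 and -1.23 (SE 0.25, adjusted p = 0.000231) for Egr1. The lowest, median and highest mouse for Egr1 were 116, 334 and 758 CPM in controls and 70.3, 153 and 329 CPM in expanded skin. Nr4a3 was at -1.24 (SE 0.18, adjusted p = 3.66e-06), Nr4a1 at -0.48 (SE 0.14, adjusted p = 0.00596) and Ier5 at -0.35 (SE 0.12, adjusted p = 0.0216). In the hashed libraries nearly all of these cells, 99.8%, carried a mouse assignment, and Ier5 lost its call without the first pair of day 2. The first round of day 1 was not hashed, and its expanded library was the highest expanded one for Egr1 and Nr4a1. Over libraries without that 1, Egr1 (-1.27, adjusted p = 0.0149) and Nr4a1 (-0.58, adjusted p = 0.013) were called by edgeR as well.

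Other early genes of the class were called in both directions, where 22.8% of all genes were called. Of 8 AP-1 genes 4 fell, among them Jund (-1.06), Fosb (-0.96) and Atf3 (-0.74). Of 9 heat shock genes 6 fell (median -0.79), Hspa1a most (-2.40, SE 0.26, adjusted p = 0.000979). Of 11 other early-response transcription factors 4 fell, with Myc at -1.56, and 1 rose. The MAPK feedback genes divided, 3 up and 3 down of 13 (median 0.11), with Dusp4 at 1.5 and Spry1 at -3.02. Of 11 upstream factors of the serum and cAMP response 2 rose and 1 fell, of 9 tested EGR1 target genes 1 rose and 2 fell, and of 5 tested upstream receptors 3 fell. Of 8 mitochondrial transcripts 3 fell, mt-Nd2 most (-1.13). The part of these genes, or of dissociation, in the members' result was not tested.

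In cells of blood and lymph vessels every called member was lower. All 3 NR4A genes were called in endothelial-like and in pericyte and smooth muscle-like cells, and Nr4a1 and Nr4a2 in lymphatic endothelial-like cells. Egr1 was called in both endothelial classes, and of the IER genes Ier2 and Ier3 in endothelial-like and Ier5 in lymphatic endothelial-like cells. Nr4a1, known in endothelium as a brake on inflammation, stood at 261, 224, 256, 123 and 251 CPM in control endothelial-like cells and 136, 119.9, 87.5, 75.3 and 195 CPM in expanded skin. It was lower in the expanded library of all 5 pairs (-1.01, SE 0.21, adjusted p = 0.00806 by edgeR), and the call held in all 10 fits that left out a library. Nr4a2 stood at 188, 263, 378, 116 and 209.6 CPM and 160.0, 123, 97.4, 32.7 and 74.0 CPM (-1.38, SE 0.34, adjusted p = 0.019). Nr4a3 stood at 117, 54.2, 59.5, 27.0 and 56.7 CPM and 21.7, 22.6, 34.3, 5.68 and 29.9 CPM (-1.48, SE 0.35, adjusted p = 0.0163). For all 3 the second day 2 control library was low enough to overlap the expanded ones.

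Ier3, high in endothelial-like cells, was the 1 member whose arms did not overlap there: 3039, 3208, 3728, 2565 and 2919 CPM in controls and 2102, 2258, 2412, 1459 and 2503 CPM in expanded skin (-0.65, SE 0.17, adjusted p = 0.0227 by edgeR). Egr1 stood at 2002, 1321, 2014, 1779 and 1593 CPM and 1780.2, 1578, 739.7, 849.6 and 642 CPM (-0.87, SE 0.21, adjusted p = 0.0185), with the day 1 expanded libraries inside the control range and the 3 later ones below it. Ier2 was at -0.56 (SE 0.16, adjusted p = 0.0355), and Egr2, Egr3 and Ier5 missed the limit at -0.77, -0.60 and -0.44 (adjusted p = 0.114, 0.157 and 0.0984). Ier2 kept its call in only 2 of the 10 fits that left out a library, those without the second day 1 control or the first day 1 expanded library. Such fits ended the call of Egr1 in 4 cases (the day 4 control, both day 2 and the day 4 expanded), of Nr4a2 in 2 (both day 4 libraries), of Ier3 in 2 (the first day 2 control, the second day 1 expanded) and of Nr4a3 in 1 (the second day 1 expanded). In the larger of the 2 endothelial-like clusters, led by Rbp7, Sox17 and Flt1, the same 6 members were called, against 12.2% of genes, with Nr4a3 at -1.54 and Egr1 at -0.96.

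In lymphatic endothelial-like cells, marked by Ccl21a, Prox1 and Lyve1, Egr1 stood at 3537, 2838, 4397, 3073 and 2944 CPM in controls and 3170.4, 2804, 1274, 1356 and 1027 CPM in expanded skin (-1.03, SE 0.24, adjusted p = 0.0132 by edgeR). Nr4a1 was at -1.06 (SE 0.28, adjusted p = 0.0232), Nr4a2 at -1.39 (SE 0.38, adjusted p = 0.0256), Egr3 at -1.0 (SE 0.30, adjusted p = 0.0391) and Ier5 at -0.65 (SE 0.21, adjusted p = 0.0487). For Egr1 the day 1 expanded libraries lay near the controls and the 3 later ones below all of them. Nr4a2 stood at 307, 287, 644, 217 and 319.9 CPM in controls and 144, 301, 182, 63.0 and 50.6 CPM in expanded skin, where only the second day 1 library reached the control range. Nr4a3 and Ier2 missed the limit at -1.07 (SE 0.38, adjusted p = 0.0797) and -0.78 (SE 0.26, adjusted p = 0.0633), and both passed with the pair as replicate block, at -1.25 (adjusted p = 0.0088) and -0.77 (0.046). Egr2 did not pass the filter on low counts. The class held 29 to 211 cells per library, and leaving out the day 4 control or the day 4 expanded library ended all 5 calls. Without the second day 2 expanded library 1 was left, Egr1, and without the first day 2 control library 2, Egr1 and Nr4a1. Over the 10 such fits Egr1 kept its call in 8, Nr4a1 in 7, Nr4a2 in 6, Egr3 in 5 and Ier5 in 2, those without the second day 2 control or the second day 1 expanded library. Egr3 was also lost without the second day 2 control.

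Pericyte and smooth muscle-like cells, which wrap vessels and were marked by Rgs5 and Myh11, had 3 called members, the NR4A genes. Nr4a2 stood at 571, 504, 468, 396 and 465 CPM in controls and 379, 442, 191, 179 and 109 CPM in expanded skin (-1.15, SE 0.22, adjusted p = 0.00466 by edgeR), and the call held in all 10 fits that left out a library. Nr4a1 stood at 1087, 1036, 872, 745 and 1189 CPM and 1027, 1004, 379, 418 and 410.1 CPM (-0.84, SE 0.20, adjusted p = 0.0138). Nr4a3 stood at 188, 243, 222, 161 and 259 CPM and 189.7, 181, 100.4, 106 and 57.9 CPM (-0.95, SE 0.25, adjusted p = 0.0186). Both lost their calls without the day 4 control and without the day 4 expanded library. The day 1 expanded libraries lay within the control range, except the first one for Nr4a2, just below it. The day 2 and day 4 expanded libraries lay below every control for all 3 genes. Those later expanded libraries were also the deepest of the class, with medians of 11473 to 13848.5 UMIs per cell. Medians were 7637 and 7136 in the day 1 expanded libraries and 4442 to 6070.5 in controls. The part of depth in this pattern by day was not tested. Ier5 missed the limit (-0.71, SE 0.27, adjusted p = 0.0832) and passed with the replicate block (-0.82, adjusted p = 0.014). Egr3 stood at 0.50 (SE 0.32, adjusted p = 0.29) and did not pass.

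**Figure D5:**
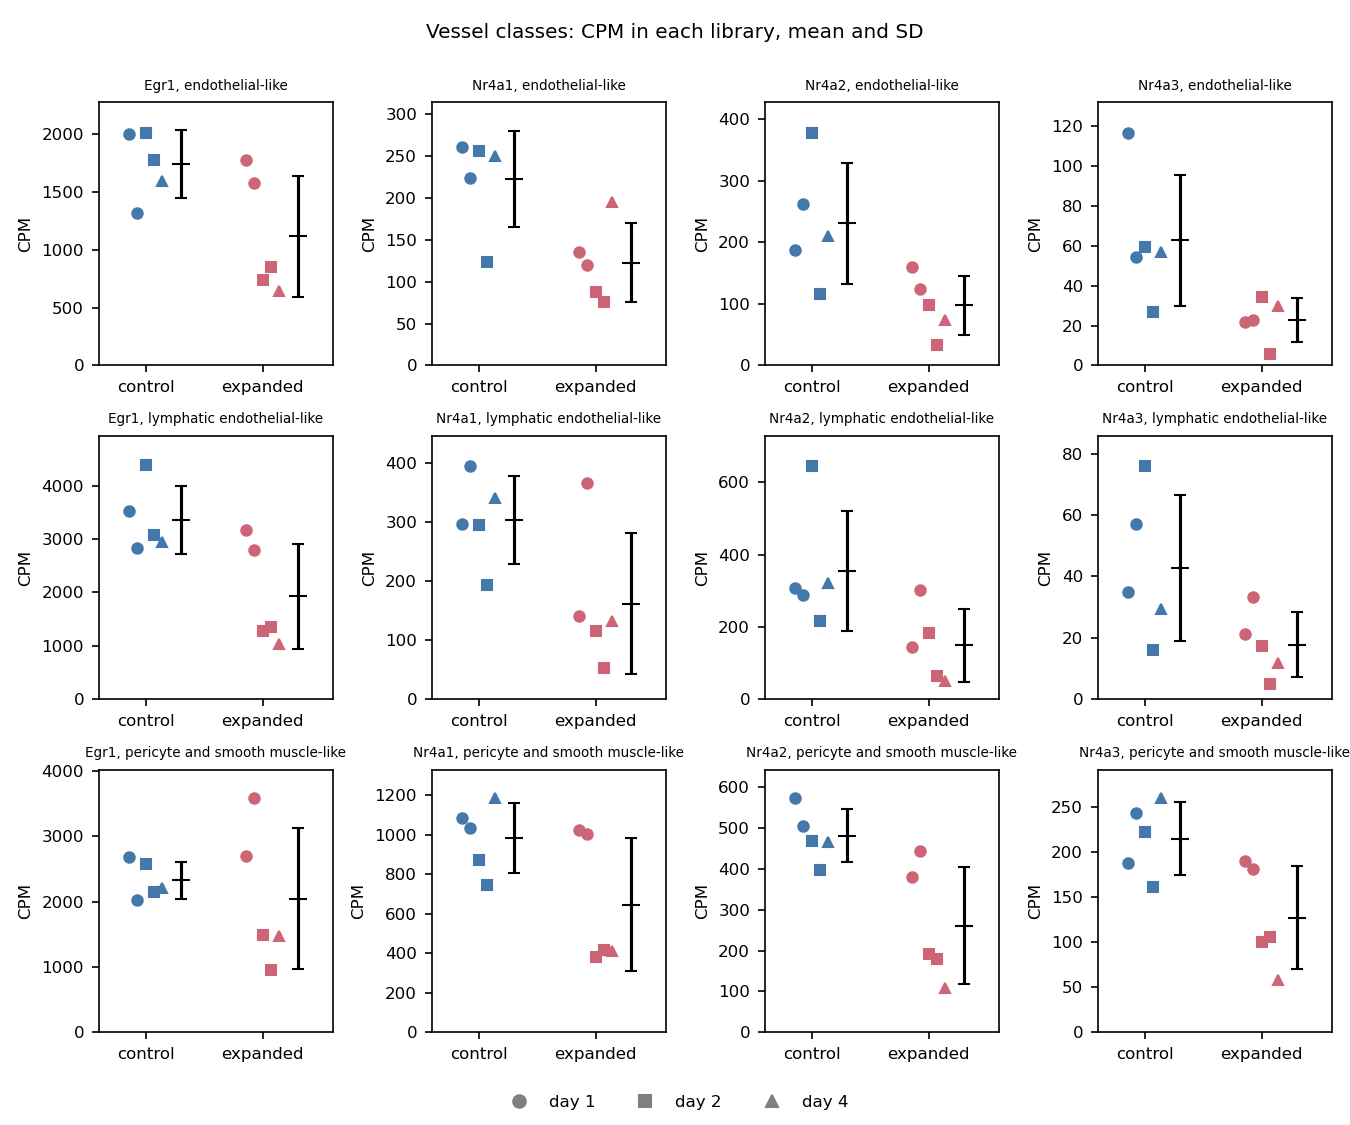
CPM per library of Egr1, Nr4a1, Nr4a2 and Nr4a3 (columns) in endothelial-like, lymphatic endothelial-like and pericyte and smooth muscle-like cells (rows), with mean ± SD for each arm (n = 5); marker shape gives the day. In pericyte and smooth muscle-like cells the day 2 and day 4 expanded libraries of the NR4A genes lie below all controls, and 5 of 6 day 1 values lie within the control range.

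Called heat shock and AP-1 genes were lower in the same vessel cells, in numbers that differed by class. Of all genes 13.1% were called in endothelial-like, 11.7% in lymphatic endothelial-like and 18.5% in pericyte and smooth muscle-like cells. In endothelial-like cells 8 of 9 heat shock genes fell (median -0.79), Hspa1a (-1.75, SE 0.23, adjusted p = 0.000844) and Hspb1 (-1.64) most, and in lymphatic endothelial-like cells 8 of 9 (median -0.88), with Hspb1 at -1.83. Of 8 AP-1 genes 4 fell in endothelial-like cells, among them Fosl2 (-0.77), 7 in lymphatic endothelial-like cells, among them Atf3 (-1.38) and Jun (-1.11), and 3 in pericyte and smooth muscle-like cells, among them Fosl2 (-1.05). Other early-response transcription factors fell as well, 6, 8 and 5 of 11, with Irf1 at -1.03 in endothelial-like and -1.36 in lymphatic endothelial-like cells, and Cebpb at -1.29 in pericyte and smooth muscle-like cells. Of the 13 MAPK feedback genes tested 3, 8 and 3 fell and none rose, with Trib1 at -0.93 in lymphatic endothelial-like cells. Crem, an early cAMP response gene, was at -1.20 in endothelial-like and -0.87 in lymphatic endothelial-like cells. In pericyte and smooth muscle-like cells 2 of 9 heat shock genes fell, Dnaja1 (-0.90) and Hspa8 (-0.75). The part of these genes, or of dissociation, in the difference of the members was not tested.

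At the clustering used throughout, few members were called in the epidermis and hair follicle. Mixed keratinocyte-like cells are 2 clusters with markers of more than 1 keratinocyte class, one led by Fgfbp1, Ly6d and Defb6 and a dividing one led by Krt25 and Krt28. There Egr3 stood at 224, 208, 168, 94.5 and 172 CPM in controls and 125, 76.1, 79.5, 71.5 and 101 CPM in expanded skin, lower in all 5 pairs though the arms overlapped (-0.93, SE 0.19, adjusted p = 0.0127 by edgeR). The call held in all 10 fits that left out a library, but at a finer clustering, where the class holds other cells, the fold change was 0.01. Nr4a1 (-0.72, SE 0.23, adjusted p = 0.0632) and Nr4a3 (-1.0, SE 0.30, adjusted p = 0.0555) missed the limit and passed with the pair as replicate block, at -0.69 (adjusted p = 0.015) and -1.09 (0.0047). Heat shock genes fell there too, 5 of 9, with Hsph1 at -1.01, as did the AP-1 gene Fosl1 (-0.99) and Nab2 (-0.91).

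Basal keratinocyte-like cells, led by Krt24, Lhx2 and Krt15, had members between -0.54 (Nr4a3) and 0.09 (Ier2), none called. Egr1 stood there at 3779.8, 2911, 3983, 2631 and 2336 CPM in controls and 2853, 3737, 2527, 2271 and 2434 CPM in expanded skin, with full overlap. Lhx2 is also among the hair follicle markers used for naming. The Ly6d and Defb6 cluster scored highest for basal markers but was placed in the mixed class. The basal keratinocyte-like class therefore does not stand for all cells with basal markers. At the finer clustering the Ly6d and Defb6 keratinocytes were placed in the basal class. There 5 members were called lower, Nr4a3 at -1.23, Nr4a1 at -0.78, Nr4a2 at -0.57, Ier3 at -0.47 and Egr1 at -0.39. At that clustering 21.2% of all genes tested in the class were called.

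Lymphocyte-like cells had 1 called member. Ier5 stood at 248, 232, 337, 305 and 260.5 CPM in controls and 525, 489.9, 452, 482 and 567 CPM in expanded skin, every expanded library above every control (0.76, SE 0.13, adjusted p = 0.0179 by edgeR). The call was lost without the second day 1, the second day 2 or the day 4 control library, or without the day 4 expanded library. The class holds T cells, γδ T cells and innate lymphocytes. In its cluster led by Trdc, Trdv4 and Tcrg-C1, genes of γδ T cells, Ier5 stood at 339, 286, 549.8, 399.7 and 368 CPM in controls and 842, 1163, 866, 698 and 917 CPM in expanded skin, and rose by 1.18 (adjusted p = 0.021, 1 of 8 members against 0.366% of genes).

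Nr4a2 and Nr4a3, both high in those γδ T cells (989.9 ± 219 and 878 ± 239 CPM in controls), were at -0.24 and -0.07. In a cluster led by Blk, Ikzf3 and Cxcr6, Ier3 was lower at -1.30 (adjusted p = 0.030, 1 of 7 members against 0.472%). In clusters led by Gzmc and Xcl1 (0.405% of genes) and by Ctla4 and Foxp3 (0.244%) no member was called, with 1 and 2 members at an unadjusted p under 0.05. By mice, 14 per arm, Ier5 (0.85, SE 0.18, adjusted p = 0.0037) and Egr1 (0.68, SE 0.21, adjusted p = 0.0395) rose, 2 of 7 tested members, against 7.69% of genes. Egr1 kept that call in 1 of 4 fits that left out a pair of libraries, and Ier5 in 3, losing it without the day 4 pair. Of 9 heat shock and 7 AP-1 genes tested in lymphocyte-like cells none was called (medians -0.44 and 0.21).

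Dendritic-like cells, the class with the highest Nr4a3, showed no called member by libraries or by mice, where 31.9% of genes were called. Nr4a3 stood at 915, 1159.7, 1080.2, 514 and 512 CPM in controls and 897, 1830.4, 730.1, 674 and 490.4 CPM in expanded skin (-0.16, SE 0.24, adjusted p = 0.671 by edgeR). The lowest adjusted p of a member there was that of Ier3 (-0.37, SE 0.18, adjusted p = 0.172), followed by Egr2 (0.50, SE 0.25, adjusted p = 0.177). In the same cells Crem fell (-1.62) and Dusp2 rose (0.99), and 3 of 8 heat shock genes fell. Of 8 tested EGR1 target genes 5 fell (median -0.65), among them Fn1 (-2.30) and Cd44 (-0.75), and none rose, against 18% of all genes called. In Schwann-like cells, the class with the highest Egr2, that gene stood at 146, 149, 149.8 and 172 CPM in 4 control libraries and 40.4, 237, 131, 264 and 206 CPM in 5 expanded ones (0.26, SE 0.32, adjusted p = 0.813). Over all kept cells Nr4a1, Nr4a2 and Ier5 were at -0.69, -0.69 and -0.71, calls that were lost in 2, 7 and 5 of the 10 fits that left out a library. By mice the same 3 were lower (-0.84, -0.71 and -0.39), against 44.7% of genes called. The sums by mice hold only assigned cells of the hashed libraries, and so a different mix of classes. Assigned were 99.8% of macrophage or monocyte-like and 99.5% of lymphocyte-like cells, but 38.6% of fibroblast-like and 11.8% of basal keratinocyte-like cells. With cells thinned to 2000 UMIs Ier5 by mice was at -0.0084 (adjusted p = 0.962) and no longer called. Such sums also follow the changing shares of cell classes.

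Whether the arm difference itself differs between classes was tested as a class-by-arm interaction, fibroblast-like cells against each other class in the same libraries. The test took whole classes, and in fibroblast-like and macrophage or monocyte-like cells the cluster shares differed between arms. As given above, the rise of Egr3 in fibroblast-like cells did not appear within most clusters tested alone. Nor was the fall of Egr2 called within the Chil3 cluster. The part of cluster shares in these interactions was not tested. For Egr3 the difference was below that of fibroblast-like cells in 6 classes: macrophage or monocyte-like cells by -3.78 (SE 0.42, adjusted p = 0.00149) on the log2 scale, lymphatic endothelial-like by -2.29 (SE 0.29, adjusted p = 0.000267), mixed keratinocyte-like by -2.14 (SE 0.32, adjusted p = 0.00373), endothelial-like by -1.76 (SE 0.24, adjusted p = 0.000942), dendritic-like by -1.48 (SE 0.30, adjusted p = 0.0155) and basal keratinocyte-like by -1.20 (SE 0.29, adjusted p = 0.04). Egr2 differed in macrophage or monocyte-like (-2.34, SE 0.31, adjusted p = 0.00186) and endothelial-like cells (-1.58, SE 0.35, adjusted p = 0.0133). Egr1 differed in macrophage or monocyte-like (-1.38), lymphatic endothelial-like (-1.36), endothelial-like (-1.13) and pericyte and smooth muscle-like cells (-0.78). Egr1 itself was called in neither direction in fibroblast-like cells, macrophage or monocyte-like cells and pericyte and smooth muscle-like cells.

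Ier3 differed from fibroblast-like cells in 5 classes, by between -1.03 (endothelial-like) and -0.64 (macrophage or monocyte-like), and Ier2 in 3 vessel classes, by between -1.27 (lymphatic endothelial-like) and -1.0 (endothelial-like). Among the NR4A genes only Nr4a3 in lymphocyte-like cells passed (0.88), and Ier5 passed there too (1.57). With total counts in place of TMM the call of Nr4a3 was lost (0.69, adjusted p = 0.0665), while Egr2 passed in lymphocyte-like (-1.19, adjusted p = 0.0484) and in pericyte and smooth muscle-like cells (-1.14, adjusted p = 0.0466). Without the filter on low counts Nr4a2 in lymphocyte-like (0.80, adjusted p = 0.0299) and Nr4a1 in Schwann-like cells (0.96, adjusted p = 0.0084) passed, and Ier3 in macrophage or monocyte-like cells missed the limit (-0.56, adjusted p = 0.0774). In all, 22 of these differences passed. The counts were 5 members against 7.53% of genes in endothelial-like, 4 against 15.2% in macrophage or monocyte-like, 3 against 3.27% in lymphatic endothelial-like and 3 against 8.11% in pericyte and smooth muscle-like cells. They were 2 against 5.68% in dendritic-like, 2 against 7.95% in mixed keratinocyte-like, 2 against 3.85% in lymphocyte-like, 1 against 2.93% in basal keratinocyte-like and 0 against 0.416% in Schwann-like cells.

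The difference between arms was also set out by day; a day and its sequencing rounds cannot be told apart. In fibroblast-like cells Egr1 was at 0.97, -0.23 and 0.19 on days 1, 2 and 4, Ier2 at 0.99, -0.04 and 0.54, and Egr3 at 1.62, 0.73 and 1.47. In lymphatic endothelial-like cells Egr1 was at -0.15, -1.62 and -1.60, Ier2 at 0.25, -1.42 and -1.58 and Egr3 at -0.07, -1.56 and -2.06. In pericyte and smooth muscle-like cells Nr4a1 was at -0.21, -1.05 and -1.68, Nr4a2 at -0.54, -1.24 and -2.24 and Nr4a3 at -0.36, -0.90 and -2.31. Day 1 values were thus above or nearer to 0 and later values lower in each of these genes of the 2 classes. Endothelial-like cells were divided. There Nr4a1 went from 261 and 224 CPM in day 1 controls to 136 and 119.9 CPM in expanded skin, and from 251 to 195 CPM on day 4. Nr4a3 went from 117 and 54.2 to 21.7 and 22.6 CPM on day 1, and from 56.7 to 29.9 CPM on day 4. Nr4a2 and Egr1 there were instead lower, relative to controls, on day 4 than on day 1. Ier5 in fibroblast-like cells was at -0.99, -0.76 and -0.21, and Egr1 in macrophage or monocyte-like cells was at -0.09, -1.97 and -1.02.

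None of these day patterns passed edgeR's test of the arm-by-day interaction. No member was called in any of the 11 library fits or the 5 mouse fits. The smallest unadjusted p over libraries was 0.000807, for Ier2 in lymphatic endothelial-like cells (adjusted p = 1.0), and over mice 0.00107, for Nr4a1 in fibroblast-like cells (adjusted p = 0.17). Few genes of any kind passed: 0% in 8 of the library fits, 0.0108% in endothelial-like, 0.00779% in fibroblast-like and 0.0288% in mixed keratinocyte-like cells, and by mice 0.0239% in all cells, 0.0164% in dendritic-like, 0.0503% in fibroblast-like, 0% in lymphocyte-like and 0.0132% in macrophage or monocyte-like cells. With 1 pair on day 4 this test has little to work with, and a missed limit does not show that the days were alike.

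The share of cells with at least 1 UMI of a gene, after thinning each cell to 2000 UMIs, was set out for 8 classes. In fibroblast-like cells it was 8.13% ± 1.84 in controls and 18.2% ± 3.73 in expanded skin for Egr3, and 3.30% ± 0.920 and 7.35% ± 2.00 for Egr2 (SD, n = 5 libraries per arm; 19.2% and 44.0%, and 11.1% and 25.1%, without thinning). In macrophage or monocyte-like cells it was 6.59% and 1.37% for Egr3, 14.8% and 7.62% for Egr2, and 20.1% and 9.52% for Nr4a3. In pericyte and smooth muscle-like cells Nr4a2 was found in 47.0% and 23.6% of cells, in mixed keratinocyte-like cells Egr3 in 25.3% and 14.0%, and in lymphocyte-like cells Ier5 in 35.8% and 51.1%. In these 8 cases no expanded library overlapped a control library, which gives the smallest p the exact two-sided permutation test allows (p = 0.00794, over all arrangements of 5 against 5 libraries). After adjustment over 72 tests in 8 classes all 8 stood at 0.0714, so none passed, while 24 of the 72 had an unadjusted p under 0.05. No class is known to lack these genes, so free RNA in the droplets has no blank here; the lowest share of any, Egr2 in lymphocyte-like cells, was 1.59% in controls and 1.74% in expanded skin.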

How the data were processed

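Single-cell RNA-seq of sorted live cells gave 10 mRNA libraries, 5 per arm. The deposited matrices hold UMI counts per gene and cell barcode, and the submitters' processing notes name Cell Ranger 6.1.2 and mm10. Hashtag counts were deposited for 8 libraries. For the control of the second day 1 round the titles of the mRNA and hashing samples look exchanged, and the description and the files were followed.

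Of 55174 barcodes, 47251 had at least 200 genes, 500 UMIs and at most 10% mitochondrial UMIs. The share over the mitochondrial limit differed between control and expanded libraries on days 2 and 4. It was 11.4% and 14.5% in the first day 2 pair, 14.1% and 24.4% in the second, and 12.5% and 23.4% on day 4. In the day 1 pairs it was 17.9% and 15.6%, and 8.60% and 8.63%. Scrublet and hashtags marked 2920 doublets, which were removed. Any 2 libraries shared 0 to 18 cell barcodes. Cells were clustered with scanpy 1.11.5 (2000 variable genes, 30 components, Leiden resolution 1), without the 9 genes and the listed genes, and clusters were named by marker genes; details of the naming rule were set while clusters were examined. Mice were assigned with HTODemux (Seurat 5.3.0, quantile 0.99).

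Sums of UMI counts were made for each class and library (at least 20 cells, at least 4 libraries per arm) or per mouse (at least 6 per arm in at least 3 pairs). They were tested with edgeR 4.0.16's quasi-likelihood test under R 4.3.3, with filterByExpr, TMM factors and Benjamini-Hochberg adjustment over all genes. Shares of cells were compared by exact permutation. On simulated counts the script recovered 41.1%, 37.2% and 34.4% of genes changed by a log2 fold of 1, and 100%, 98.9% and 96.7% of those changed by 2, with the fibroblast, macrophage or monocyte and basal keratinocyte libraries, at 0.0557%, 0.100% and 0.0649% false calls among unchanged genes. The simulation gave every gene the same dispersion and had no effect of day or pair. Changed genes were drawn from those passing the count filter. Recovery and false calls in the real libraries can therefore differ.

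The labels give a pair of libraries a shared day and sequencing round, so pair numbers match the samples. Same-numbered libraries deviated together with r of 0.25 to 0.53 in all cells, and of -0.06 to 0.53 in 54 class-and-pair cases, 45 of them over 0.1. A fit with the pair as replicate block is the alternative.

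The 9 genes are always named. Of other lists, counts are given, and up to 3 genes per list and class were named that were called, moved the same way in every pair and had the largest fold change; 2 genes that the naming rules select are not reported here. The members and lists were chosen with earlier results of these data known. Tests within single clusters, and of the Tnc cluster with the fibroblast-like class, were chosen after seeing the data. Promoter sequences are from RefSeq, read with Python 3.11.15. DESeq2 1.42.0 was an alternative test.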

Additional observations from a re-analysis of the deposited data

Results flagged for a closer look

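In 180 groups of 4 or 5 libraries, 14 held 1 library far from the others; chance gives about 1 in 20 groups. In macrophage or monocyte-like cells the first day 1 expanded library, with 134 cells, was highest for Egr2 (96.2 CPM against 31.4 to 44.8 in the others) and for Nr4a1 (202 CPM). Among controls of that class Ier2 was highest in the second day 2 library (142 CPM) and Ier3 in the second day 1 library (3408 CPM). In lymphatic endothelial-like cells Nr4a1 was highest in the second day 1 expanded library (366 CPM against 52.1 to 140 in the others), and Nr4a2 in the first day 2 control library (644 CPM), which held 29 cells. In endothelial-like controls Egr3 was highest in the first day 2 library (239.6 CPM) and Nr4a1 lowest in the second day 2 library (123 CPM).

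The day 4 control library was highest in Schwann-like cells for Egr2 (172 CPM) and Nr4a3 (128 CPM). Egr2 was highest in the second day 1 expanded library of dendritic-like cells (102 CPM), Ier3 in the first day 1 control library of lymphocyte-like cells (225 CPM) and in the day 4 expanded library of mixed keratinocyte-like cells (996 CPM), and Nr4a1 in the first day 1 control library of basal keratinocyte-like cells (1077 CPM).

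In 22 cases the arm difference of a class differed from that of fibroblast-like cells by the class-by-arm test with edgeR. These are differences of whole classes, and the part of cluster shares in them was not tested. The log2 differences for Egr3 were -3.78 in macrophage or monocyte-like, -2.29 in lymphatic endothelial-like, -2.14 in mixed keratinocyte-like, -1.76 in endothelial-like, -1.48 in dendritic-like and -1.20 in basal keratinocyte-like cells. For Egr2 they were -2.34 in macrophage or monocyte-like and -1.58 in endothelial-like cells. For Egr1 they were -1.38, -1.36, -1.13 and -0.78 in macrophage or monocyte-like, lymphatic endothelial-like, endothelial-like and pericyte and smooth muscle-like cells. For Ier3 they were -1.03 in endothelial-like, -0.92 in dendritic-like, -0.75 in mixed keratinocyte-like, -0.69 in pericyte and smooth muscle-like and -0.64 in macrophage or monocyte-like cells. For Ier2 they were -1.27 in lymphatic endothelial-like, -1.01 in pericyte and smooth muscle-like and -1.0 in endothelial-like cells. In lymphocyte-like cells they were 1.57 for Ier5 and 0.88 for Nr4a3.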

How the results depend on the processing

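Over 49 called gene results and 739 alternatives, 581 kept direction and call, 151 kept the direction only and 7 reversed, none of those 7 with a call. The cause was not tested. The reversals were in fibroblast-like clusters taken alone (Ier5 0.17 in the Lrrc15 cluster, Nr4a3 0.018 and Egr3 -0.40 in the Mme cluster, Egr2 -0.47 and Egr3 -0.12 in the Apod cluster, Egr3 -0.15 in the Fmod cluster) and Egr3 in mixed keratinocyte-like cells at Leiden resolution 2 (0.014). The members called were 1, 0, 2 and 0 in the Fmod, Lrrc15, Mme and Apod clusters against 7, 1 in the Chil3 cluster and 2 at resolution 2 against 4 in macrophage or monocyte-like cells, and 0 in the Gzmc and in the Foxp3 cluster against 1 in lymphocyte-like cells. At resolution 2 they were 5 against 0 in basal and 0 against 1 in mixed keratinocyte-like cells. Without the low-count filter they were 2 in lymphocyte-like, 3 in mixed keratinocyte-like and 5 in pericyte and smooth muscle-like cells, and, of differences from fibroblast-like cells, 2 in Schwann-like (against 0), 2 in basal keratinocyte-like (against 1), 3 in lymphocyte-like (against 2), 3 in macrophage or monocyte-like (against 4) and 5 in pericyte and smooth muscle-like cells (against 3), where total counts gave 4. In mixed keratinocyte-like cells DESeq2, the 5% mitochondrial limit and the replicate block each gave 3. In lymphatic endothelial-like cells thinning and a minimum of 50 cells each gave 2 against 5. Total counts gave 1 against 0 in dendritic-like cells by mice. The replicate block changed no call beside those given with the results. The counts of this section are not set beside the share of all genes called under each alternative. They do not show whether the members stand out from other genes there.

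Leaving out 1 library, the members called ranged from 0 to 0 in Schwann-like and basal keratinocyte-like, 0 to 1 in dendritic-like, 3 to 6 in endothelial-like, 4 to 8 in fibroblast-like, 0 to 6 in lymphatic endothelial-like, 0 to 1 in lymphocyte-like, 3 to 5 in macrophage or monocyte-like, 1 to 4 in mixed keratinocyte-like, 1 to 4 in pericyte and smooth muscle-like and 1 to 4 in all cells. The fibroblast-like count was 4 without the day 4 expanded library, the endothelial-like count 3 without either day 4 or the second day 1 expanded library, the dendritic-like count 1 and the mixed keratinocyte-like count 4 without the second day 2 control, and the latter 2 without the first day 2 expanded library. Leaving out a pair, the counts by mice were 0 to 1 in dendritic-like, 6 to 7 in fibroblast-like, 0 to 2 in lymphocyte-like, 5 to 6 in macrophage or monocyte-like and 3 to 6 in all cells. Lymphatic endothelial-like libraries held 29 to 211 cells, and recovery at such depth was not simulated.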
